A study of Homo sapiens with 6 samples.

Results

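Interferon-stimulated genes were followed in CAL-27 cells, an established human line of tongue squamous carcinoma cells. The set was a list of 38 symbols, and all 38 had a row among the 17110 genes of the table. The comparison was between 3 parental libraries from cells grown in adhesion and 3 sphere libraries from cells of the same labelled line isolated in suspension culture as cancer stem cells. No transgene, drug, interferon treatment or infection is named for either group, and the labels give no age of the cultures. By the label of the line all cells descend from 1 tumour. Whether both groups are the same line was not tested. The labels leave unsaid whether each replicate had its own culture, and p-values therefore cover the spread among the 6 libraries alone, a spread that may be technical. Values were TPM, transcript abundance scaled for transcript length and to a fixed total per library, which keeps no sequencing depth.

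Interferons are secreted proteins, many of which cells release on sensing viral nucleic acid. Type I and type III interferons act through JAK kinases to form a complex that contains STAT2 and IRF9, which binds the interferon-stimulated response element of its target genes, while interferon gamma acts at the gamma-activated site. The target genes encode antiviral effectors, sensors and the factors of the pathway itself, and epithelial cells hold many of them at a low level without added interferon.

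To show the sequences through which such genes are known to be switched on, RefSeq promoter windows of build GRCh38.p14 were searched (250 bases before to 50 bases after a start). Windows were found for 31 of the 38 genes. The response element core (GAAA, any 2 bases, GAAA) was searched on both strands, and the gamma-activated site TTCNNNGAA reads the same on both. The first was in at least 1 window of 21 of the 31 genes, or 67.7%, against 4.38% of all 27305 genes in the table of windows. The second was in 9 of the 31, or 29%, against 9.38%. Counted by window, the first was in 25 of the 42 windows of these genes and in 3.57% of all 35116 windows, and the second in 10 of the 42 and in 7.66%. These are matches of letters, and binding was not measured. IFI27 had the largest rise among genes with a response element match, and its window lies at chr14:94110486-94110785 on the plus strand. IFIT3 had the largest fall among them, and its window lies at chr10:89327747-89328046 on the plus strand. RefSeq lists 2 starts for each of these genes, and the first along the chromosome is printed. Capitals mark matches to the response element core, as read along the gene, so that a match on the other strand reads TTTC, 2 bases, TTTC.
IFI27: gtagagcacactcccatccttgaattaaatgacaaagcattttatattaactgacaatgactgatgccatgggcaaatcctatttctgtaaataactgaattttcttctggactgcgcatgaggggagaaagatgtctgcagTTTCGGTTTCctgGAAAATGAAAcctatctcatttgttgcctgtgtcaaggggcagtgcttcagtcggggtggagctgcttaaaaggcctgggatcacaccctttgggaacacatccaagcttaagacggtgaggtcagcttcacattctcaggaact
IFIT3: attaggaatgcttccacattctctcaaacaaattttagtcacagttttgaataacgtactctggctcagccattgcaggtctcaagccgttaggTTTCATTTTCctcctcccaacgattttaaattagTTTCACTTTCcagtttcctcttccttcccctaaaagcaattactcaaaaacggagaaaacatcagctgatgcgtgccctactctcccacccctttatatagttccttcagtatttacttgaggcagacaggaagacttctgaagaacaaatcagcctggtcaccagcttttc
In IFI27 a gamma-activated site match shares 3 bases with each of the response element matches. In IFITM1 and MX1 such a match shares 3 bases with 1 response element match.

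Single matches from genes that fell (IFIT1, IFIT5, GBP1 and IRF1) and from genes that rose (GBP3, RSAD2 and IRF9) are given next, each with 8 flanking bases and with the match in capitals, on the strand that reads the searched letters. They are the response element matches of IFIT1 and IFIT5 (chr10:89392499-89392524 and chr10:89414515-89414540), of the neighbours GBP1 and GBP3 (chr1:89065318-89065343 and chr1:89022847-89022872) and of RSAD2 (chr2:6877624-6877649), and the gamma-activated site matches of IRF1 (chr5:132490881-132490905) and IRF9 (chr14:24161194-24161218).
IFIT1: cgaaagggGAAAGTGAAActaaagct
IFIT5: aagcttcaGAAACCGAAActtaatag
GBP1: agtaatatGAAACTGAAAgtacttcg
GBP3: agcctaatGAAACTGAAAgtacttct
RSAD2: ccacatgtGAAACTGAAAgttgaaac
IRF1: agcctgatTTCCCCGAAatgacggc
IRF9: cacgtgatTTCTGGGAAaaggccct
GBP1, GBP3 and RSAD2 have CT as the free bases between GAAA and GAAA, and these 10 letters occur in at least 1 window of 12 of the 31 genes. Counted by window, which is another unit, they occur in 0.265% of all 35116 windows. Their share by gene over all genes was not counted. Of these 12 genes 6 were higher in sphere libraries, 5 were lower and 1 did not pass the test. The response element core was in 8 of the 11 genes with a window that were higher, in 9 of the 14 that were lower and in 4 of the 6 that did not pass. The gamma-activated site was in 6 of the 11, 2 of the 14 and 1 of the 6. These counts are a description, and no test was made of them.

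The set moved in both directions between parental and sphere libraries. All 38 genes passed the filter of a mean of at least 1 TPM over the 6 libraries, RSAD2 and CMPK2 through their sphere values, since their parental means were under 1 TPM. Differences of log2(TPM + 1), sphere minus parental, were tested with limma in a fit to all 12261 such genes, with Benjamini-Hochberg adjustment over all of them. At an adjusted p below 0.05 the test was passed by 32 of the 38, or 84.2%, where 83.4% of all tested genes passed. Higher in sphere libraries were 14 of them (36.8%, against 35.1% of all tested genes) and lower were 18 (47.4%, against 48.2%). Both shares lie near those of all tested genes. At least 2-fold on this scale, 4 genes were higher (10.5%, against 12.5%) and 9 were lower (23.7%, against 14.7%). The 2 groups did not overlap in 32 genes, or 84.2%, against 84.6% of all tested genes. The median difference of the 38 was -0.11 and that of all tested genes was -0.13. With median-of-ratios scaling between libraries, which moved the median of all tested genes to 0.03, the set had 16 genes higher and 16 lower. Over all tested genes that scaling turned 4309 higher and 5912 lower into 5284 and 4887. That setting applies the filter to rescaled values and tested 12257 genes. Where the scaling ends or makes a call, or turns a direction, this is said with each gene described.

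**Figure D1:**
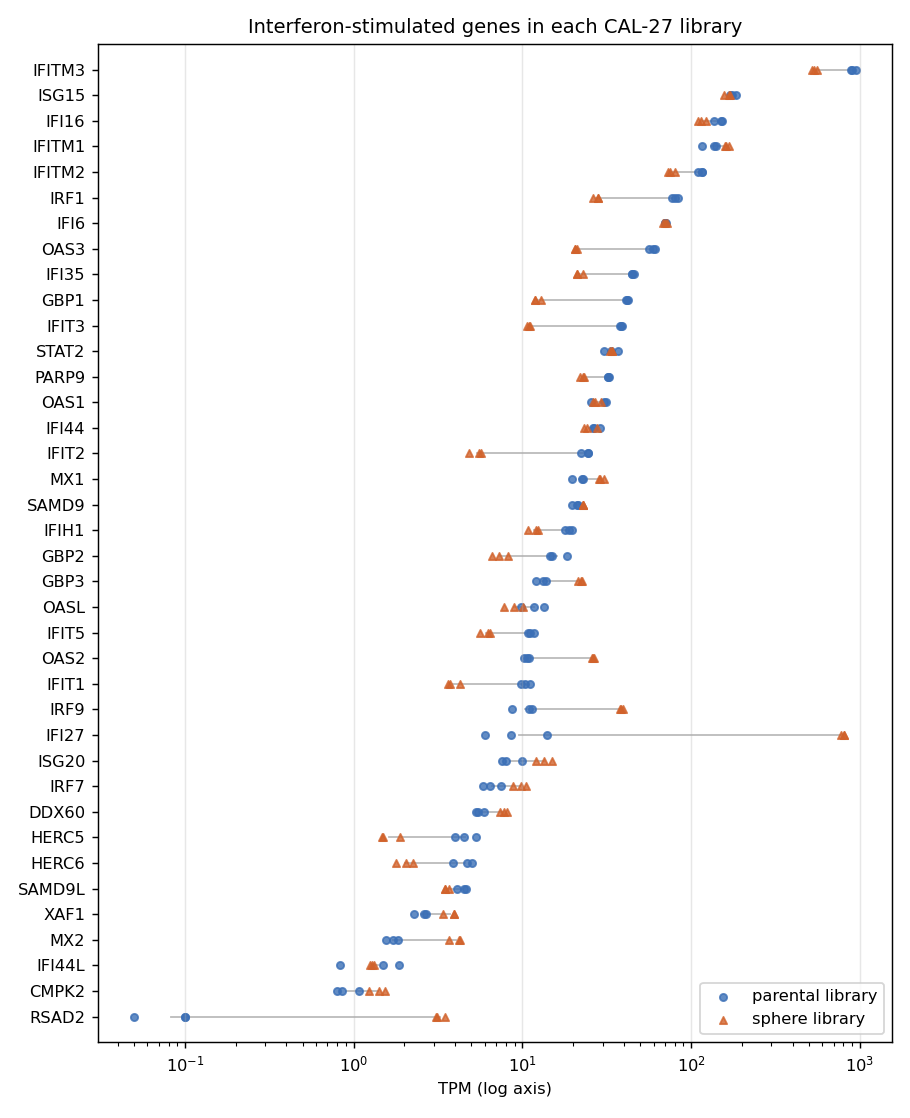
TPM of the 38 interferon-stimulated genes (log axis) in 3 parental libraries (circles) and 3 sphere libraries (triangles), ordered by the parental mean, with a grey line joining the group means. IFI27 moves from 9.55 to 796 TPM, while the groups lie close together for ISG15, IFI6 and STAT2.

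**Figure D2:**
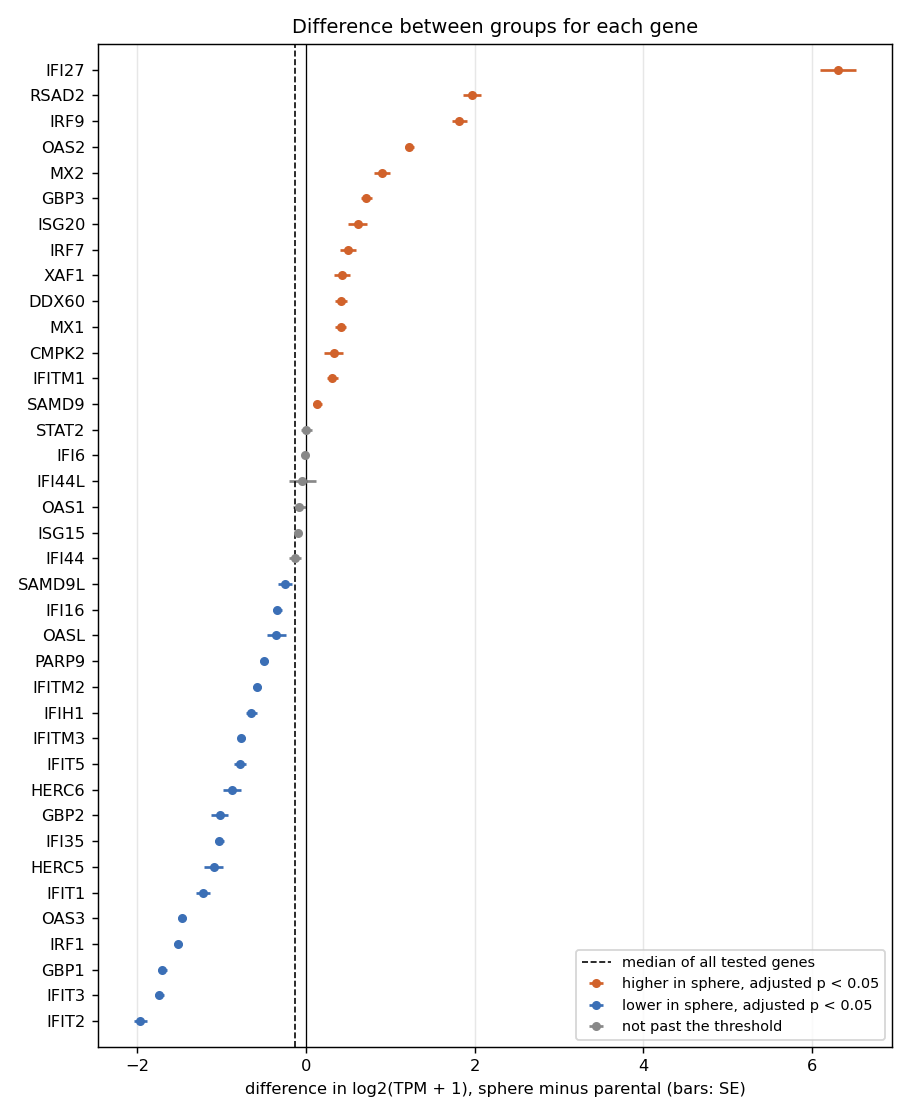
Difference in log2(TPM + 1), sphere minus parental, for each gene with its SE from limma. The dashed line is the median of all tested genes (-0.13). Differences run from -1.96 for IFIT2 to 6.31 for IFI27, with 14 genes higher, 18 lower and 6 not past the threshold.

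Among the transcription factors, IRF9 and IRF7 rose, IRF1 fell and STAT2 did not pass the test. IRF9 (Entrez Gene 10379), the DNA-binding subunit of the complex with STAT2, was at 11.38, 10.98 and 8.66 TPM in parental replicates 1 to 3 and at 38.65, 38.20 and 39.65 TPM in the sphere replicates. Every sphere library was above every parental one, and the means were 10.3 ± 1.47 and 38.8 ± 0.74 TPM (SD, n = 3 each), a log2 difference of 1.82 (SE 0.089, limma adjusted p = 3.2e-08). Of the 50-base words in its GENCODE 29 coding transcripts, 82.7% also occur in another annotated gene, AL136295.5. Where both genes are annotated, reads of 50 bases, the length named in the labels, cannot be assigned to either from those words alone. The sources used here do not say whether the authors' annotation held AL136295.5. IRF1 (Entrez Gene 3659), a factor induced strongly by interferon gamma that activates GBP and antigen presentation genes, was at 77.54, 83.57 and 80.06 TPM and at 26.37, 28.02 and 28.03 TPM. The groups were far apart, with a log2 difference of -1.52 (SE 0.048, adjusted p = 1.6e-09). IRF7, the factor that amplifies type I interferon genes, was low in both groups and rose from 6.61 ± 0.85 to 9.75 ± 0.89 TPM (adjusted p = 0.00092). STAT2 (Entrez Gene 6773), the partner of IRF9 in the complex, was at 30.44, 36.80 and 33.40 TPM and at 33.99, 32.89 and 33.80 TPM. The sphere libraries lay inside the parental range (log2 difference 0.00, SE 0.067, adjusted p = 0.95). With median-of-ratios scaling STAT2 was 0.18 higher in sphere libraries (adjusted p = 0.028, range over all settings 0.028 to 1.0). In mean TPM, IRF9 lay below STAT2 in parental libraries and above it in sphere libraries.

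The 4 IFIT genes, which encode tetratricopeptide proteins that bind viral or foreign RNA and are neighbours on chromosome 10, were all lower in sphere libraries. IFIT2 (Entrez Gene 3433) was at 24.42, 22.31 and 24.49 TPM in parental and at 5.56, 5.66 and 4.85 TPM in sphere libraries. This was the largest fall of the set, 4.43-fold in mean TPM and -1.96 on the log2 scale (SE 0.074, limma adjusted p = 5.2e-09). IFIT3 (Entrez Gene 3437), whose protein stabilises IFIT1 on RNA, was at 38.10, 39.26 and 38.53 TPM and at 11.12, 10.91 and 10.66 TPM. It was the most abundant of the 4 in each group (log2 difference -1.74, SE 0.050, adjusted p = 8.4e-10). IFIT1 (Entrez Gene 3434), which recognises the cap of RNA that lacks ribose methylation, was at 9.80, 10.33 and 11.12 TPM and at 3.74, 3.65 and 4.28 TPM (log2 difference -1.22, SE 0.083, adjusted p = 3.5e-07). IFIT5 fell least, from 11.3 ± 0.44 to 6.13 ± 0.42 TPM (adjusted p = 4e-06). In none of the 4 did a sphere library reach a parental one. Over all tested genes 35.1% were higher, 48.2% were lower, and the groups did not overlap in 84.6%. The 20 nearest tested genes around this cluster, the set's own genes left out, had a median difference of -0.27 with 6 higher and 11 lower, and the adjoining gene LIPA was at -1.62. Their part in the result was not tested. IFIT2 shares 7.5% of its 50-base words with another annotated gene, AL353751.1.

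The oligoadenylate synthetases, which sense double-stranded RNA and make a short nucleotide messenger, moved in both directions within 1 gene cluster on chromosome 12. OAS2 (Entrez Gene 4939) was at 10.67, 10.29 and 10.97 TPM in parental and at 26.13, 25.79 and 26.76 TPM in sphere libraries, with no overlap (log2 difference 1.23, SE 0.054, limma adjusted p = 1.6e-08). Its neighbour OAS3 (Entrez Gene 4940) was at 59.91, 61.03 and 56.52 TPM and at 20.97, 20.60 and 20.58 TPM, the reverse pattern (log2 difference -1.47, SE 0.047, adjusted p = 1.8e-09). OAS3 was the most abundant of the family in parental libraries and lay under OAS1 and OAS2 in sphere libraries. The 20 nearest tested genes around OAS1, OAS3 and OAS2 had a median difference of -0.59, with 2 higher and 14 lower. Over all tested genes 35.1% were higher and 48.2% lower. OAS1, next to OAS3, was at 29.1 ± 3.12 and 27.5 ± 1.64 TPM with overlapping groups (adjusted p = 0.4), and its difference turned to 0.097 with median-of-ratios scaling. It passed only without parental replicate 1, at a difference of -0.16 and an adjusted p of 0.04 (range over all settings 0.04 to 0.81). OASL, a synthetase-like protein without that enzyme activity, fell from 11.7 ± 1.83 to 8.91 ± 1.13 TPM, though its groups overlapped (adjusted p = 0.019, range over all settings 0.0034 to 0.16). That call was lost without parental replicate 2, sphere replicate 2 or sphere replicate 3 (adjusted p = 0.072, 0.051 and 0.075) and with median-of-ratios scaling (0.16).

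The guanylate-binding proteins, large GTPases that attack membranes around intracellular pathogens and respond chiefly to interferon gamma, also divided. GBP1 (Entrez Gene 2633) was at 41.74, 41.36 and 42.49 TPM in parental and at 12.83, 11.84 and 11.83 TPM in sphere libraries (log2 difference -1.70, SE 0.053, limma adjusted p = 1.4e-09). GBP2 (Entrez Gene 2634) was at 14.63, 15.06 and 18.30 TPM and at 8.22, 7.25 and 6.63 TPM (log2 difference -1.02, SE 0.10, adjusted p = 5.8e-06). GBP3, a neighbour of both, rose from 13.0 ± 0.84 to 22.1 ± 0.59 TPM (log2 difference 0.72, adjusted p = 2.3e-06) and so was the most abundant of the 3 in sphere libraries, where GBP1 had been in parental ones. None of the 3 had overlapping groups, which was so for 84.6% of all tested genes. GBP1 shares 13.3% of its 50-base words with another gene, mostly the pseudogene GBP1P1, and GBP3 shares 3.89%, mostly with GBP1.

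The MX genes encode dynamin-like GTPases, of which MX1 blocks influenza and other RNA viruses and MX2 blocks human immunodeficiency virus. MX1 rose from 21.7 ± 1.81 to 29.2 ± 1.12 TPM and MX2 from 1.70 ± 0.14 to 4.05 ± 0.30 TPM (log2 differences 0.41 and 0.90, limma adjusted p = 0.00024 and 9.6e-06). Groups overlapped in neither. Over all tested genes the groups did not overlap in 84.6%, while 35.1% were higher and 48.2% lower. The 20 nearest tested genes on chromosome 21 had a median difference of 0.76, with 15 higher and 2 lower, and the adjoining genes BACE2 and RIPK4 were at 0.78 and 0.79. MX1 rose by less than that median and MX2 by more, and the part of the neighbourhood in the result was not tested.

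**Figure D3:**
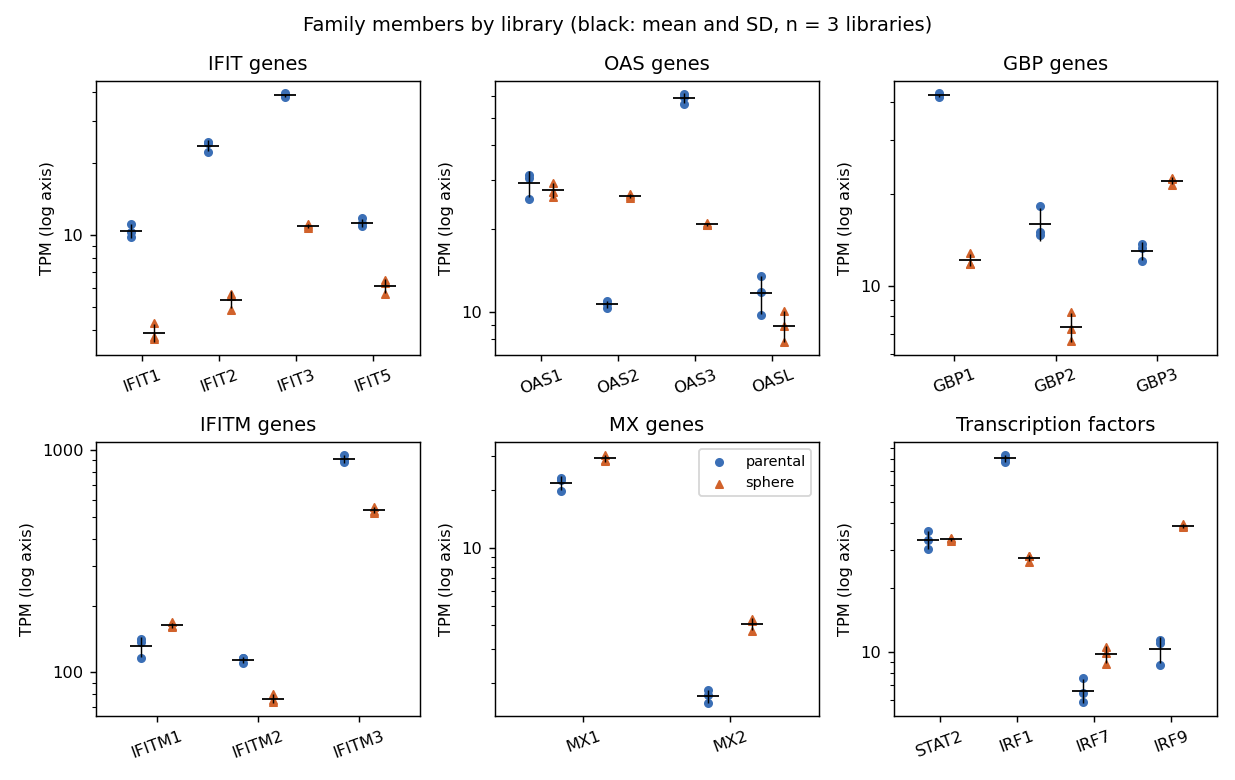
TPM (log axis) of 6 families by library, parental as circles and sphere as triangles, with group mean and SD in black (n = 3). All 4 IFIT genes are lower in sphere libraries, while OAS2 against OAS3, GBP3 against GBP1 and GBP2, IFITM1 against IFITM2 and IFITM3, and IRF9 against IRF1 move in opposite directions.

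The IFITM genes encode small membrane proteins that hold back fusion of entering viruses, and they were among the most abundant of the set. IFITM3 (Entrez Gene 10410) was at 955.26, 882.43 and 903.99 TPM in parental and at 522.67, 555.36 and 533.24 TPM in sphere libraries, a log2 difference of -0.77 (SE 0.041, limma adjusted p = 5.7e-08). IFITM2 (Entrez Gene 10581) was at 115.65, 110.24 and 116.11 TPM and at 75.05, 73.30 and 80.10 TPM (log2 difference -0.58, SE 0.045, adjusted p = 1.1e-06). IFITM1 (Entrez Gene 8519) went the other way, from 116.11, 141.53 and 136.82 TPM to 162.10, 168.21 and 159.87 TPM (log2 difference 0.32, SE 0.068, adjusted p = 0.0016). Groups did not overlap for any of the 3, which was so for 84.6% of all tested genes. The IFITM genes are close copies that lie side by side on chromosome 11. Of their 50-base words 32.9% in IFITM1, 35.3% in IFITM2 and 15.98% in IFITM3 also occur in another gene, mostly in each other. The sources used here do not say how the authors divided such reads.

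IFI27 had by far the largest difference of the set, while IFI35 fell and IFI6, IFI44 and IFI44L did not pass the test. IFI27 (Entrez Gene 3429), a short mitochondrial protein long used as a marker of interferon response in blood and also known from skin disease, was at 8.55, 14.08 and 6.02 TPM in parental and at 808.88, 803.24 and 776.80 TPM in sphere libraries. The means were 9.55 ± 4.12 and 796 ± 17.1 TPM, 83.4-fold apart, with a log2 difference of 6.31 (SE 0.214, limma adjusted p = 2.5e-09). The parental libraries spread more than 2-fold, and without 1 library at a time or under the other settings the difference ran from 6.05 to 6.61. None of its 50-base words occurs in another gene. Both adjoining genes, IFI27L1 and IFI27L2 of the same family, were higher in sphere libraries too, at 1.68 and 1.07. The 20 nearest tested genes on chromosome 14 had a median of 0.46 with 11 higher and 7 lower. Over all tested genes 35.1% were higher and 48.2% lower. IFI27 was, among sphere libraries, the most abundant of the 38 genes, with 33.7% of their summed TPM, and in parental libraries it was number 27 with 0.442%. IFI6, its relative in the mitochondrial membrane, was at 70.4 ± 0.51 and 69.9 ± 1.93 TPM (adjusted p = 0.81). IFI6 was 0.17 higher in sphere libraries after median-of-ratios scaling (adjusted p = 0.0038, range over all settings 0.0038 to 0.93). IFI35 (Entrez Gene 3430), a leucine zipper protein that binds NMI, was at 45.68, 44.83 and 44.79 TPM and at 21.21, 20.99 and 22.87 TPM, with a log2 difference of -1.02 (SE 0.050, adjusted p = 3.2e-08). The paralogs IFI44 and IFI44L were at 27.4 ± 1.40 and 25.0 ± 2.31 TPM and at 1.39 ± 0.52 and 1.28 ± 0.035 TPM, with overlapping groups (adjusted p = 0.11 and 0.81). Their differences turned to 0.041 and 0.058 with median-of-ratios scaling. IFI44 passed only without sphere replicate 3, at a difference of -0.20 and an adjusted p of 0.019 (range over all settings 0.019 to 0.59).

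ISG15, a ubiquitin-like modifier and the second most abundant of the set in parental libraries, did not pass the test, while HERC5 and HERC6 fell. ISG15 (Entrez Gene 9636) was at 175.41, 183.98 and 170.47 TPM in parental and at 168.40, 170.14 and 156.78 TPM in sphere libraries. The groups lay close together without overlapping (log2 difference -0.10, SE 0.045, limma adjusted p = 0.071). ISG15 passed with array weights, with the replicate block and without parental replicate 3 (adjusted p = 0.047, 0.043 and 0.043) and turned to 0.08 with median-of-ratios scaling (range over all settings 0.043 to 0.27). HERC5 (Entrez Gene 51191), the main human ligase for ISG15, was at 4.50, 5.29 and 3.98 TPM and at 1.88, 1.48 and 1.49 TPM (log2 difference -1.09, SE 0.114, adjusted p = 9.9e-06). HERC6, which serves as that ligase in mouse, lies beside HERC5 and fell from 4.55 ± 0.58 to 2.03 ± 0.23 TPM (adjusted p = 3.5e-05). Of the other enzymes of the cascade, the activating enzyme UBA7 fell from 6.01 ± 0.40 to 3.75 ± 0.52 TPM and the conjugating enzyme UBE2L6 from 129 ± 7.5 to 67.3 ± 1.2 TPM (adjusted p = 0.00044 and 4.6e-08). USP18, which removes ISG15 and restrains the type I receptor, fell from 15.7 ± 0.78 to 4.44 ± 0.21 TPM (adjusted p = 1.4e-08). UBA7, UBE2L6 and USP18 were taken from lists outside the set that hold genes of both directions. UBA7 and UBE2L6 were picked after their values were seen. Lower were 48.2% of all tested genes.

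RSAD2 and CMPK2 are neighbours on chromosome 2 whose products make and supply a chain-terminating nucleotide. RSAD2 (Entrez Gene 91543), or viperin, was at 0.05, 0.10 and 0.10 TPM in parental and at 3.49, 3.10 and 3.14 TPM in sphere libraries. Parental values were near 0 and sphere values low, with a log2 difference of 1.97 (SE 0.105, limma adjusted p = 5.9e-08), which became 4.20 with a pseudocount of 0.1. CMPK2 (Entrez Gene 129607), which entered the test through its sphere values, rose from 0.91 ± 0.14 to 1.39 ± 0.15 TPM (adjusted p = 0.021, range over all settings 0.0039 to 0.069). That call was lost without parental replicate 1 or 2 or sphere replicate 2 or 3, where the adjusted p was 0.051, 0.058, 0.069 and 0.056.

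The 3 genes of the set grouped here as sensors, IFIH1, IFI16 and DDX60, changed by less than 2-fold. IFIH1, the helicase MDA5 that senses long double-stranded RNA, fell from 18.9 ± 0.91 to 11.7 ± 0.77 TPM (limma adjusted p = 9.7e-06). IFI16, a nuclear DNA sensor and the third most abundant of the set in parental libraries, fell from 146 ± 8.8 to 116 ± 5.9 TPM (adjusted p = 0.00025). DDX60, a helicase, rose from 5.56 ± 0.30 to 7.76 ± 0.39 TPM (adjusted p = 0.00048), and its neighbour and paralog DDX60L was at a log2 difference of 0.54.

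The remaining effectors also moved by less than 2-fold. ISG20, an RNA exonuclease, rose from 8.5 ± 1.28 to 13.5 ± 1.51 TPM, and XAF1, a pro-apoptotic zinc finger protein, from 2.53 ± 0.21 to 3.75 ± 0.29 TPM (limma adjusted p = 0.00045 and 0.0018). PARP9, a macrodomain partner of the ligase DTX3L, fell from 32.3 ± 0.33 to 22.7 ± 0.70 TPM, and DTX3L, which adjoins it on chromosome 3, from 26.5 ± 0.88 to 15.8 ± 0.21 TPM (adjusted p = 5.3e-06 and 5.9e-07). The antiviral paralogs SAMD9 and SAMD9L adjoin each other on chromosome 7. SAMD9 rose from 20.8 ± 0.87 to 22.9 ± 0.11 TPM (adjusted p = 0.037, range over all settings 0.00038 to 0.12). That call was lost without parental replicate 1 or any 1 sphere replicate and with the replicate block, where its adjusted p was 0.12, 0.067, 0.083, 0.084 and 0.057. SAMD9L fell from 4.42 ± 0.30 to 3.54 ± 0.11 TPM (adjusted p = 0.017, range over all settings 0.0041 to 0.24), and its call was lost without parental replicate 3 or sphere replicate 3 (0.053 and 0.052) and with median-of-ratios scaling (0.24).

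The summed TPM of the 38 genes was 2151 to 2163 in parental and 2329 to 2391 in sphere libraries, or 0.215 to 0.216% and 0.233 to 0.239% of all TPM. Without IFI27 and IFITM3, the most abundant gene of each group, which were left out after their values were seen, the sum was 1200 to 1267 and 1019 to 1033 TPM. The sum was thus higher in sphere libraries with these genes and lower without them. Within a group no library stood apart over the set. The median deviation of the 38 genes from their group mean lay between -0.009 and 0.023 on the log2 scale in each library, and 15 to 23 of them were above the group mean.

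Most interferon receptor genes were higher in sphere libraries, and the classical interferon genes in the table were near 0. Of the pathway genes outside the set, the list of 9 receptor subunits and kinases had 6 genes higher and 1 lower, where 35.1% of all tested genes were higher and 48.2% lower, with a median log2 difference of 0.48 beside -0.13 for all tested genes, or 7 and 0 with median-of-ratios scaling. IFNGR2 (Entrez Gene 3460), the signalling chain of the interferon gamma receptor, was at 67.32, 69.98 and 58.30 TPM in parental and at 241.34, 221.66 and 238.27 TPM in sphere libraries (log2 difference 1.83, SE 0.067, limma adjusted p = 4.1e-09). Its partner IFNGR1, which binds the ligand, rose from 75.2 ± 4.8 to 104 ± 1.1 TPM (adjusted p = 1.1e-05). Of the type I receptor chains, IFNAR2 rose from 12.8 ± 0.45 to 20.4 ± 1.67 TPM (adjusted p = 1.5e-05), while IFNAR1 was at 23.7 ± 1.89 and 25.1 ± 0.95 TPM (adjusted p = 0.26, range over all settings 0.003 to 0.61, the lowest after median-of-ratios scaling). Both chains of the type III receptor rose, IFNLR1 from 5.75 ± 0.61 to 11.1 ± 0.40 TPM and IL10RB from 29.2 ± 1.5 to 41.1 ± 1.6 TPM (adjusted p = 5.4e-06 and 1.8e-05). IFNAR2, IL10RB, IFNAR1 and IFNGR2 follow one another on chromosome 21. The 20 tested genes nearest to each of them, which include the other receptor genes of this row, had medians from -0.32 to -0.21. The part of the neighbourhood in the result was not tested.

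Of the kinases, JAK2, which serves the interferon gamma receptor, rose from 2.26 ± 0.30 to 7.02 ± 0.17 TPM (limma adjusted p = 4.6e-07). JAK1, shared by all interferon receptor types, fell from 64.2 ± 0.25 to 54.1 ± 1.40 TPM (adjusted p = 0.00029), a call lost with median-of-ratios scaling (0.13, range over all settings 0.00026 to 0.13). TYK2, of the type I and III receptors, was at 27.7 ± 1.43 and 25.2 ± 1.46 TPM (adjusted p = 0.065, range over all settings 0.031 to 0.54), and passed only without parental replicate 2 or sphere replicate 3. Its difference turned to 0.039 with median-of-ratios scaling.

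Of 13 interferon genes listed, 6 were in the table and IFNE, an interferon of epithelia that acts through the type I receptor, was tested. IFNE rose from 3.79 ± 0.39 to 5.97 ± 0.64 TPM (limma adjusted p = 0.00061). IFNB1 was at 0, 0.29 and 0.28 TPM in parental libraries and listed at 0 in each sphere library. IFNA1, IFNA8, IFNK and IFNL3 were at no more than 0.52 TPM in any library. The listed genes IFNA2, IFNA5, IFNA14, IFNW1, IFNG, IFNL1 and IFNL2 had no row in the table. Interferon genes outside the list were not analysed here.

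Of 12 tested genes of nucleic acid sensing upstream of interferon 3 were higher and 4 lower, or 5 and 4 with median-of-ratios scaling (median -0.12), so that 7 of the 12 passed where 83.4% of all tested genes did. IKBKE (Entrez Gene 9641), a kinase that activates IRF3 and IRF7, was at 28.36, 30.67 and 26.29 TPM in parental and at 5.42, 4.92 and 5.34 TPM in sphere libraries (log2 difference -2.24, SE 0.073, limma adjusted p = 1.9e-09). TLR3, the endosomal receptor for double-stranded RNA, which entered the test through its parental values, fell from 2.73 ± 0.13 to 0.16 ± 0.053 TPM (adjusted p = 2e-07), while its adaptor TICAM1 had the largest rise of this list, from 18.3 ± 0.53 to 30.3 ± 1.14 TPM (adjusted p = 8e-07). The cytosolic sensor RIGI, listed as DDX58 in the table, was at 11.7 ± 0.47 and 10.8 ± 0.41 TPM (adjusted p = 0.16), with a difference that turned to 0.062 with median-of-ratios scaling. Of 7 genes that restrain the pathway 3 were higher and 2 lower (4 and 1 with median-of-ratios scaling), against 35.1% and 48.2% of all tested genes. USP18 fell as given above, and SOCS1, an inhibitor of JAK kinases, rose from 3.33 ± 0.32 to 8.08 ± 0.48 TPM (adjusted p = 1.3e-06).

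A further 33 interferon-stimulated genes outside the set held genes of both directions. Of the 31 that were tested, 11 were higher and 19 lower (median -0.24), or 12 and 13 with median-of-ratios scaling, against 35.1% higher and 48.2% lower over all tested genes. The chemokines CXCL11 and CXCL10, which draw T cells, rose from 2.18 ± 0.093 to 12.9 ± 0.97 TPM and from 3.21 ± 0.39 to 8.15 ± 0.14 TPM (limma adjusted p = 5.4e-09 and 1e-06). Their log2 differences were 2.12 and 1.13, the only rises of at least 2-fold in this list, which BST2, EPSTI1 and TNFSF10 joined with median-of-ratios scaling (1.17, 1.03 and 1.03). LAMP3, a lysosomal membrane protein, fell from 40.9 ± 3.6 to 3.67 ± 0.57 TPM, APOL1, an apolipoprotein that lyses trypanosomes, from 86.9 ± 5.2 to 23.3 ± 1.7 TPM, and LGALS3BP, a secreted galectin ligand, from 345 ± 14.6 to 118 ± 7.0 TPM (adjusted p = 1.4e-09, 2.9e-09 and 2.1e-09). These were the 3 falls of at least 2-fold. Of all tested genes, 12.5% passed at least 2-fold higher and 14.7% at least 2-fold lower.

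**Figure D4:**
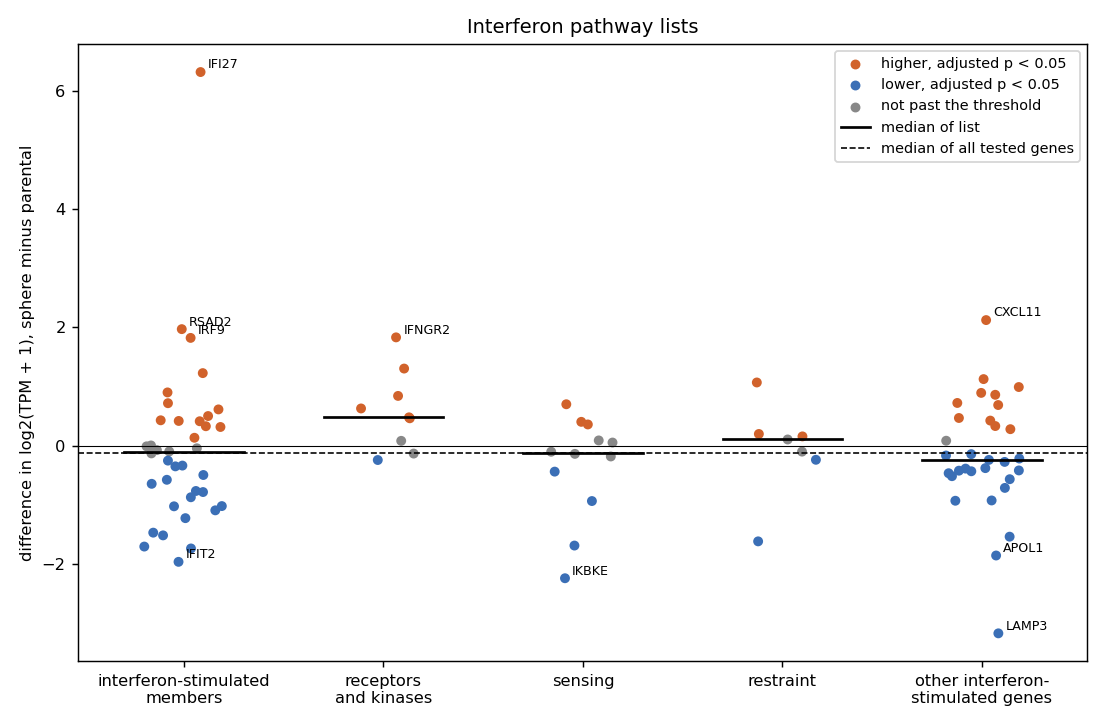
Difference in log2(TPM + 1), sphere minus parental, for the 38 genes and for the tested genes of 4 further lists, 1 point per gene, with the list median as a bar and the median of all tested genes (-0.13) dashed. The receptor and kinase list has a median of 0.48, the other medians lie between -0.24 and 0.10, and each list holds genes on both sides.

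The label of a squamous carcinoma line was checked against markers. KRT5, KRT8, KRT18, EPCAM, CDH1 and TP63 were at 64.2 TPM or more in every library. Of these KRT5, CDH1 and TP63 were higher in sphere libraries. KRT8, EPCAM and KRT18 were lower, KRT8 from 1431 to 495.8 TPM, EPCAM from 310.7 to 159.8 TPM and KRT18 from 1217 to 1065 TPM, the last a call lost with median-of-ratios scaling. KRT14 and KRT17 were at 4.69 ± 0.21 and 99.7 ± 3.8 TPM in parental and at 7705 ± 79.5 and 9649 ± 129 TPM in sphere libraries. Of 6 leukocyte markers 1 was tested and did not pass, their summed level was 2.44 to 2.82 TPM in parental and 2.03 to 2.35 TPM in sphere libraries, and PTPRC was listed at 0 in 5 of the 6 libraries. Of 6 fibroblast markers, at 11.97 to 12.4 and 15.6 to 17.2 TPM in sum, COL1A1 rose and PDGFRB fell, and COL3A1 was at no more than 0.04 TPM. Of 3 endothelial markers CDH5 alone was tested and fell from 10.99 to 0.01 TPM, and PECAM1 and VWF were at no more than 0.21 TPM in any library. CDH5 and PDGFRB entered the test through their parental values, since their sphere means were under 1 TPM. These are bulk samples, in which fewer cells of a type and less RNA per cell cannot be told apart.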

How the data were processed

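Total RNA of 6 CAL-27 samples was sequenced as single-end 50-base reads by BGISEQ-500, as the labels' protocols state. The authors deposited 1 table of TPM for 17110 genes, per the file headers, with column sums of 999999 to 1000000. Its columns are called Control or Sphere and numbered. Since the series has only parental and sphere samples, Control was taken as parental. The submitters' processing notes name HISAT, Bowtie2 and the mouse build GRCm38.p6. The gene IDs are human: 17052 of 17110 matched human RefSeq, 16805 with the same symbol. Coordinates printed are those of RefSeq sequences on GRCh38.p14. The sources used here name no counting tool, annotation or strand setting. The depth of each library is unknown.

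The genes and lists were chosen with earlier results of these data known. Genes with a mean of at least 1 TPM were compared by limma 3.58.1 under R 4.3.3 on log2(TPM + 1), with a mean-variance trend, two-sided, with 4 residual degrees of freedom. On this scale the fold change of a low gene is understated. The test was checked on simulated data. These had independent normal noise in each library, so the check cannot show whether the replicates are technical. All 38 genes are reported, with library values for those past the threshold at 2-fold with at least 5 TPM in the higher group, and for STAT2, ISG15 and the IFITM genes. Of each outside list the largest rise and fall, every gene at 2-fold and all receptors and kinases are named. Some genes of these lists are not reported here and were left out of the lists' counts. Library values of HERC5 and RSAD2, and UBA7, UBE2L6, DTX3L, BST2, EPSTI1, TNFSF10, RIGI, IFNB1 and the adjoining genes, were added after their values were seen. Shared 50-base words came from GENCODE 29 transcripts, counted in Python 3.11.15. Whether the authors' annotation held the other genes with these words is not known. The settings varied were the pseudocount (0.1), the filter (none, or 5 TPM), scaling by median of ratios, the prior (robust, or without trend), array weights, the replicate block, and each library left out in turn.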

Additional observations from a re-analysis of the deposited data

How the results depend on the processing

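Of the 38 genes, 28 kept their direction and their side of the threshold in all 14 alternative settings (in the 13 that tested them where the filter of a mean of at least 5 TPM removed them). The genes counted higher and lower were 14 and 18, and 12 to 14 and 17 to 19 with 1 library left out. A mean of at least 5 TPM, which leaves 30 of the genes, gave 10 and 15. With the replicate block they were 13 and 19. No pairing by replicate number was seen, since deviations from the group mean correlated by 0.018, -0.018 and -0.055 between libraries of the same number. At least 2-fold lower were 9 genes, and 6 with median-of-ratios scaling.

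Direction changed with median-of-ratios scaling for OAS1 (0.097), ISG15 (0.08), IFI6 (0.165), IFI44 (0.041) and IFI44L (0.058), and outside the set for APOL6 (0.021), RIGI (0.062), EIF2AK2 (0.033), NMI (0.01), SOCS3 (0.074) and TYK2 (0.039). That scaling raises sphere values relative to parental values for every gene. STAT2 turned to -0.061 without parental replicate 1, to -0.004 without sphere replicate 1 and to -0.001 without sphere replicate 3, and ran from -0.061 to 0.071 with 1 library left out. IFI6 turned to 0.008 without sphere replicate 3 (-0.031 to 0.008) and IFI44L to 0.097 without parental replicate 2 (-0.225 to 0.097). The cause of these was not tested. With TPM alone, no counting error can be given for genes near 1 TPM such as RSAD2, CMPK2, IFI44L, HERC5 and MX2.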
